A study of Mus musculus with 18 samples.

Results

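The Oas genes encode the 2'-5' oligoadenylate synthetases and their relatives. In the read count table of 18 mouse breast tumours, 8 such genes were followed, taken by name: Oas1a, Oas1b, Oas1c, Oas1g, Oas2, Oas3, Oasl1 and Oasl2, out of 54532 genes in the table. All 8 passed the filter on low counts and were tested. The tumours were xenografts of PB2, a line of murine breast cancer cells, and mRNA of the whole tumour was sequenced. By genotype, 8 tumours were p95HER2, which overexpress a HER2 receptor cut short at its amino-terminal side, and 10 were EV, the controls. Mice of both groups received the doxycycline diet DOX625. The study asked how p95HER2 overexpression changes gene expression in PB2 tumours. The labels name no sex, age, host strain, batch, promoter or clone. Since separate mice are not stated either, the p-values measure the spread between these tumours, which may be technical in part.

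An OAS enzyme binds double-stranded RNA and joins ATP into short chains linked between the 2' and 5' positions, called 2-5A. These chains are a second messenger that leads to the decay of viral and cellular RNA. The genes are classic targets of type I interferon: the receptor signals to a complex of transcription factors, which binds the interferon-stimulated response element (ISRE) in promoters, and both tumour cells and the immune cells of a tumour can respond.

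All 8 genes lie on chromosome 5 in 2 groups, with coordinates on build mm10. Oasl2 (ENSMUSG00000029561, 114896936 to 114912234) and Oasl1 (ENSMUSG00000041827, 114923240 to 114937915) form a pair on the plus strand. The other 6 lie within 177 kb, in the order Oas2 (ENSMUSG00000032690, 120730333 to 120749853, minus strand), Oas3 (ENSMUSG00000032661, 120753098 to 120777661, minus strand), Oas1c (ENSMUSG00000001166, 120800194 to 120812514, minus strand), Oas1b (ENSMUSG00000029605, 120812635 to 120824163, plus strand), Oas1g (ENSMUSG00000066861, 120876142 to 120887613, minus strand) and Oas1a (ENSMUSG00000052776, 120896256 to 120907521, minus strand). The annotation marks Oas1b as a polymorphic pseudogene and the other 7 as protein coding.

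Promoter sequences from RefSeq (GRCm38.p6, 250 bases before to 50 after the start) were found for 6 of the 8 genes: Oas1a, Oas1c, Oas1g, Oas3, Oasl1 and Oasl2. The ISRE core GAAANNGAAA, where N is any base, was searched on both strands. It occurred for 4 of these 6 genes, against 1079 of the 27025 genes with a promoter in the table (3.99%). It also occurred for 8 of 18 other interferon response genes with a promoter there (44.4%). Counted by promoter, it was in 1131 of 32851 (3.44%). The 4 stretches that hold it are shown because a match to this core is what these 4 promoters have in common. Oas2 and Oas1b, also in the cluster, had no promoter among those found. Bases covered by matches are in capitals, and each stretch is read 5' to 3' on its gene's strand.
Oas1a, chr5:120907526-120907585, minus strand: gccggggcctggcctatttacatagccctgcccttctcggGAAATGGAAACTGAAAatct
Oas1g, chr5:120887614-120887673, minus strand: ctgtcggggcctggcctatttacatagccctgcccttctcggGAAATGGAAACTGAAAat
Oas1c, chr5:120812588-120812653, minus strand: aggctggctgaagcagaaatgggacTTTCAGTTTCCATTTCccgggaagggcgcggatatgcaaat
Oas3, chr5:120777700-120777759, minus strand: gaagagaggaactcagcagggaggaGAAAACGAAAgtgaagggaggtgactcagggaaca

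Oas1a, Oas1g and Oas1c held the same 16-base run, made of 2 overlapping matches. It read forward in Oas1a and Oas1g and as its reverse complement in Oas1c, where it lies between the divergent starts of Oas1c and Oas1b, which are 121 bases apart, and ends 7 bases before the start of Oas1b. The run occurred in 7 of the 32851 promoters (0.0213%), which belonged to Oas1a, Oas1c, Oas1g, Apol9a and Apol9b. Oas3 held 1 match with other central bases. The Oasl1 and Oasl2 promoters held no match, which says that these letters are not in this window. A match describes the sequence and says nothing of binding by a factor.

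Library totals ran between 32686558 and 34804640 counts for p95HER2 tumours and between 35030920 and 38464541 for EV tumours. Neither these totals nor the numbers in the tumour tags overlapped between the groups, so an effect of handling that followed them cannot be told apart from the genotype. The 8 luminal epithelial markers, which check the labelled cell type, were detected, and their summed CPM, counts scaled to library size, had a median of 2148 in p95HER2 tumours and 2186 in EV tumours. Krt19 was called lower among them, with 62.0 ± 22.2 CPM in p95HER2 tumours and 142 ± 35.5 CPM in EV tumours (log2 fold change -1.20, edgeR adjusted p = 0.00180). In whole tumours, fewer cells of a type and less RNA per cell cannot be told apart.

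Oas mRNA was lower in p95HER2 tumours than in EV tumours for most of the family, with the largest of the 8 fold changes in Oas2. The edgeR quasi-likelihood test, with Benjamini-Hochberg adjustment over the 17123 genes tested, called 5 of the 8 genes lower at an adjusted p under 0.05 (Oas2, Oas1g, Oas1a, Oas1c and Oasl1) and 0 higher, against 4.45% of all genes tested called lower. All 8 fold changes were negative, as were 52.3% of those of all genes. The median log2 fold change, p95HER2 minus EV, was -0.64 over the 8 genes and -0.01 over all genes tested. In 0 of the 8 genes did every p95HER2 tumour lie below every EV tumour, which was the case for 0.111% of all genes. Levels below are CPM on TMM-scaled libraries, as mean ± SD over 8 p95HER2 and 10 EV tumours.

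**Figure D1:**
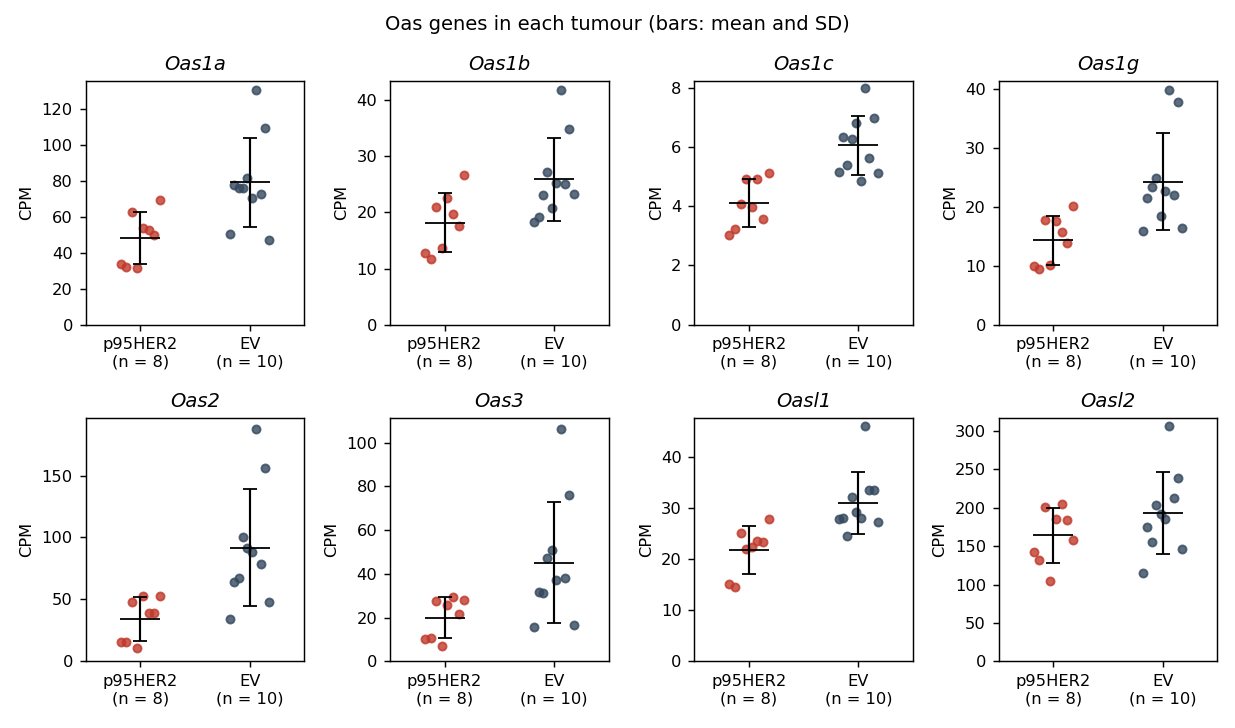
Level of each Oas gene in every tumour, in CPM on linear axes that start at 0, with p95HER2 tumours (n = 8) left of EV tumours (n = 10). Each point is a tumour, the long bar is the mean and the whiskers are the SD. The 3 lowest p95HER2 tumours lie apart in Oas2 and Oas3, and the highest point of every panel is EV 7.

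Among the genes of active synthetases, Oas2 differed most. It had 10.9, 39.1 and 52.7 CPM (lowest, median and highest) in p95HER2 tumours, against 34.5, 83.6 and 188 CPM in EV tumours. The lowest values came from p95HER2 4, p95HER2 1 and p95HER2 2, at 10.9, 15.7 and 16.1 CPM, with a gap to 39.0 CPM in the next tumour. These 3 lay below every EV tumour, and 8 of the 10 EV tumours lay above every p95HER2 tumour. The means were 34.3 ± 17.5 CPM in p95HER2 tumours and 91.7 ± 47.3 CPM in EV tumours, a log2 fold change of -1.42 (SE 0.38, edgeR adjusted p = 0.0247). All 8 p95HER2 tumours were below the EV median.

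Oas3, which encodes the largest synthetase of the family, had the second largest difference but did not pass the test. It had 7.04, 23.8 and 29.4 CPM (lowest, median and highest) in p95HER2 tumours, against 15.9, 37.8 and 106 CPM in EV tumours. The same 3 p95HER2 tumours were lowest, the EV tumours were the more scattered group, and the groups overlapped through 2 EV tumours. The log2 fold change was -1.17 (SE 0.39, edgeR adjusted p = 0.0655), and all 8 p95HER2 tumours were below the EV median. DESeq2 and limma voom called it lower, with adjusted p of 0.0214 and 0.0492.

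Oas1a and Oas1g encode the active enzymes among the mouse Oas1 copies. Oas1a had 31.8, 51.2 and 69.3 CPM (lowest, median and highest) in p95HER2 tumours, against 47.2, 75.9 and 131 CPM in EV tumours. Oas1g had 9.38, 14.8 and 20.2 CPM in p95HER2 tumours, against 15.9, 22.3 and 39.8 CPM in EV tumours. In both genes all 8 p95HER2 tumours were below the EV median, and the groups overlapped through EV 1 and EV 10 and, for Oas1g, EV 5. Oas1a averaged 48.2 ± 14.3 CPM in p95HER2 tumours and 79.2 ± 24.8 CPM in EV tumours, a log2 fold change of -0.72 (SE 0.20, edgeR adjusted p = 0.0336). The call for Oas1a was lost without any 1 of 7 tumours (p95HER2 1, 2, 4 and 7, EV 5, 7 and 9), with an adjusted p of up to 0.0690. Oas1g averaged 14.3 ± 4.13 CPM in p95HER2 tumours and 24.3 ± 8.22 CPM in EV tumours, a log2 fold change of -0.76 (SE 0.20, edgeR adjusted p = 0.0237), and lost its call without p95HER2 4 (adjusted p = 0.0505).

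Oas1a and Oas1g are close copies, so how the authors' counting assigned their reads is uncertain. Their coding sequences were 97.27% identical over 1098 aligned bases, and their promoters, of which the stretches shown end in nearly the same letters, were 88.78% identical over 294 bases. Of the 100-base windows of their exons, 40.9% of those of Oas1a and 31.2% of those of Oas1g occurred in the other gene.

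Oas1c and Oas1b start back to back. Oas1c was the least abundant of the 8, with 104 to 175 counts in p95HER2 tumours and 177 to 288 counts in EV tumours, and among the 8 it had the smallest adjusted p. It had 3.02, 4.04 and 5.12 CPM (lowest, median and highest) in p95HER2 tumours, against 4.85, 5.94 and 7.97 CPM in EV tumours. It varied little within a group, and 5 of 8 p95HER2 tumours lay below every EV tumour. The means were 4.10 ± 0.813 CPM in p95HER2 tumours and 6.048 ± 1.002 CPM in EV tumours, a log2 fold change of -0.56 (SE 0.13, edgeR adjusted p = 0.00809). Oas1b, whose full-length protein protects mice from flaviviruses and is truncated in many laboratory strains, had 11.7, 18.6 and 26.6 CPM in p95HER2 tumours, against 18.2, 24.2 and 41.9 CPM in EV tumours. The groups overlapped more than for Oas1c, with 7 of 8 p95HER2 tumours below the EV median. Its log2 fold change was -0.51 (SE 0.18) with an edgeR adjusted p of 0.0810, while DESeq2 and limma voom gave 0.0285 and 0.0442. The counts do not tell the strain's allele of Oas1b.

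The Oasl pair encodes synthetase-like proteins that carry ubiquitin-like domains. Oasl1 lacks synthetase activity and in mice restrains translation of Irf7 mRNA, and Oasl2 retains activity in mice. Oasl1 had 14.5, 22.9 and 27.8 CPM (lowest, median and highest) in p95HER2 tumours, against 24.5, 28.7 and 46.1 CPM in EV tumours. The lowest were p95HER2 2 and p95HER2 1, and 6 of 8 p95HER2 tumours lay below every EV tumour. It averaged 21.8 ± 4.66 CPM in p95HER2 tumours and 31.0 ± 6.05 CPM in EV tumours, a log2 fold change of -0.51 (SE 0.13, edgeR adjusted p = 0.0169). Oasl2 had the highest CPM of the 8, with 104, 171 and 205 CPM in p95HER2 tumours and 115, 189 and 307 CPM in EV tumours. The groups overlapped over most of their range, with 6 of 8 p95HER2 tumours below the EV median. Oasl2 averaged 164 ± 36.0 CPM in p95HER2 tumours and 193 ± 53.5 CPM in EV tumours, and its log2 fold change was -0.24 (SE 0.17, edgeR adjusted p = 0.399).

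The 4 other Oas1 copies in the table, Oas1d, Oas1e, Oas1f and Oas1h, were nearly silent. Their counts, summed over a group, were 4 to 18 in p95HER2 tumours and 7 to 40 in EV tumours, and they did not pass the filter.

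The order of levels within the family also differed between the groups. Per kilobase of exon, the mean level in p95HER2 tumours ran from Oasl2 (25.7 CPM per kb) and Oas1a (25.6) through Oas1b (9.13), Oasl1 (8.34), Oas2 (7.70), Oas1g (6.11) and Oas3 (2.84) to Oas1c (1.71). In p95HER2 tumours, the mean ± SD ranges of neighbours in this order overlapped except between Oas1a and Oas1b and between Oas1g and Oas3. In EV tumours the order was Oas1a (42.0 CPM per kb), Oasl2 (30.3), Oas2 (20.6), Oas1b (12.98), Oasl1 (11.9), Oas1g (10.4), Oas3 (6.40) and Oas1c (2.51), and all neighbouring ranges overlapped. These ranges compare levels between tumours. Within single EV tumours, Oas1a lay above Oasl2, Oasl2 above Oas2, Oas1g above Oas3 and Oas3 above Oas1c in 10 of 10. Oas1b lay above Oasl1 in 6 of 10. In p95HER2 tumours, Oasl2 lay above Oas1a in 5 of 8. Oas2 made up 8.27 ± 2.64% of the summed Oas level per kilobase in p95HER2 tumours and 14.3 ± 2.93% in EV tumours. Oasl2 made up 30.1 ± 4.23% in p95HER2 tumours and 22.4 ± 1.79% in EV tumours. These shares were not tested.

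The tumours at both ends of the range kept nearly the same rank across most of the family, while those between them differed in this. EV 7 was the highest of the 18 in all 8 genes, and EV 9 ranked 16 or 17, counting from the lowest. At the other end, p95HER2 1, 2 and 4 had a median rank of 2, with the exception that p95HER2 4 ranked 8 for Oas1c. Of the other tumours, EV 4 ranked 13 to 16, while p95HER2 6, for example, ranked 5 to 15 and EV 1 ranked 2 to 11. The summed level of the 8 genes was 205 to 407 CPM in p95HER2 tumours and 283 to 868 CPM in EV tumours. Within EV tumours, Oas2 correlated most with Oas3 (Pearson r = 0.98, Spearman rho = 0.96) and, by r, least with Oasl1 (r = 0.76, rho = 0.76). By a permutation test, the adjusted p for r over 14 such relations ran from 0.00028 to 0.0117 for the 7 other members, and that for rho from 0.00112 to 0.0383. Without the 2 EV tumours farthest from the median, the relation with Oas1b (r = 0.66, adjusted permutation p = 0.0949) and with Oasl1 (r = 0.71, adjusted permutation p = 0.0711) no longer passed. In p95HER2 tumours Oas2 fell into separate clusters of 3 and 5 tumours. A pooled r over these 8 tumours is therefore not given, although these relations count in the adjustment, and each cluster is too small for a correlation of its own.

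The genes whose pattern was most like that of Oas2, by Pearson r of log2 values after removing each group's mean, over 18 tumours and 13070 genes, were Ifi203 (r = 0.97), H2-Q6 (0.94), Mndal (0.94), Nlrc5 (0.94) and Trim30a (0.94). The median r of all genes was -0.04, and 0 genes exceeded Oas3. Their log2 fold changes, from -0.79 to -0.14, were smaller than that of Oas2, a difference that was not tested. Ifi203, an interferon-inducible gene, averaged 66.3 ± 23.2 CPM in p95HER2 tumours and 80.3 ± 28.5 CPM in EV tumours, a log2 fold change of -0.28 (edgeR adjusted p = 0.511), and Trim30a was the 1 of the 5 that passed the test. The points share library and scaling, and the separate clusters of p95HER2 tumours in Oas2 enter each r. These r are therefore descriptions, and relations inside the clusters were not tested.

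The cluster lies in a neighbourhood where other genes were lower too. Of the 33 tested genes within 1 Mb of the Oas1, Oas2 and Oas3 cluster, 5 were called lower and 0 higher. The 5 were Rbm19, Ddx54, Ptpn11, Hectd4 and Brap. Of the 33, 26 had a negative log2 fold change, and the median was -0.29. Over all genes tested, 4.45% were called lower and 52.3% had a negative log2 fold change. Whether the neighbours differ from these shares was not tested. Ptpn11, which encodes the phosphatase Shp2, had 207 ± 23.0 CPM in p95HER2 tumours and 269 ± 42.2 CPM in EV tumours, a log2 fold change of -0.37 (edgeR adjusted p = 0.0107). Ptpn11 was the nearest tested gene after the cluster. The nearest before it, Dtx1, had 0.358 CPM in p95HER2 tumours and 0.346 CPM in EV tumours. Its log2 fold change was 0.05 (edgeR adjusted p = 0.952). The Oasl pair, in contrast, had 46 tested neighbours with a median log2 fold change of -0.02, of which 4 were called lower (Acacb, Coq5, Triap1 and Bicdl1) and 1 higher (Trpv4). The neighbour nearest to the pair on each side, 1500011B03Rik and 2210016L21Rik, had log2 fold changes of 0.08 and 0.14 (edgeR adjusted p = 0.653 and 0.0620).

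**Figure D2:**
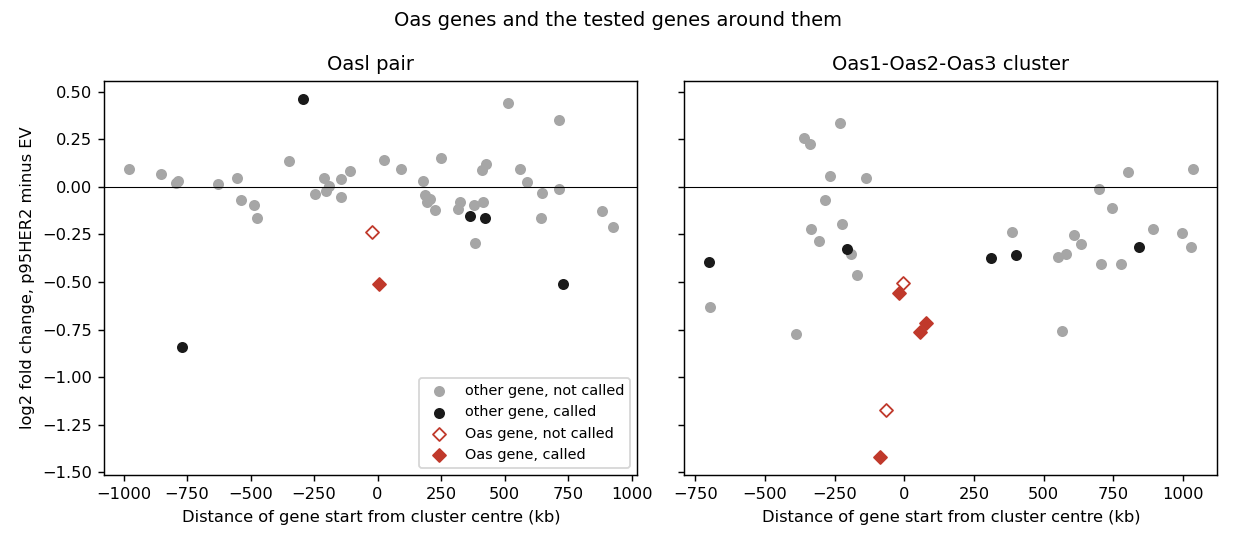
Log2 fold change, p95HER2 minus EV, of tested genes within 1 Mb of the Oasl pair (left) and of the Oas1, Oas2 and Oas3 cluster (right), against the distance of the gene start from the cluster's centre in kb. Diamonds are Oas genes, circles are other genes, and filled or black symbols passed an edgeR adjusted p under 0.05. The median of the circles is -0.02 on the left and -0.29 on the right, and Oas2 lies lowest at -1.42.

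Each gene was therefore also measured against the mean log2 level of the tested genes within 1 Mb, leaving out Oas genes. On this scale limma called 2 of the 8 lower, Oas2 and Oasl1, against 4.08% of the 16291 genes so tested, and 6 of 8 had an unadjusted p under 0.05, as did 4224 of all 16291. Oas2 stood 0.72 above its neighbours in p95HER2 tumours and 1.95 above them in EV tumours on the log2 scale, a difference of -1.23 (SE 0.35, limma adjusted p = 0.0352). Oasl1 stood at -0.13 in p95HER2 tumours and 0.37 in EV tumours, a difference of -0.50 (SE 0.13, limma adjusted p = 0.0183). The other 6 kept a negative difference that did not pass, from Oas3 at -0.87 (SE 0.35, limma adjusted p = 0.128) to Oasl2 at -0.21 (SE 0.16, limma adjusted p = 0.461). Oasl1 was called in all 18 fits that left out 1 tumour. Oas2 was lost in 8 of them (without p95HER2 1, 2 or 4 or EV 4, 5, 6, 7 or 9), with an adjusted p of up to 0.0742.

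**Figure D3:**
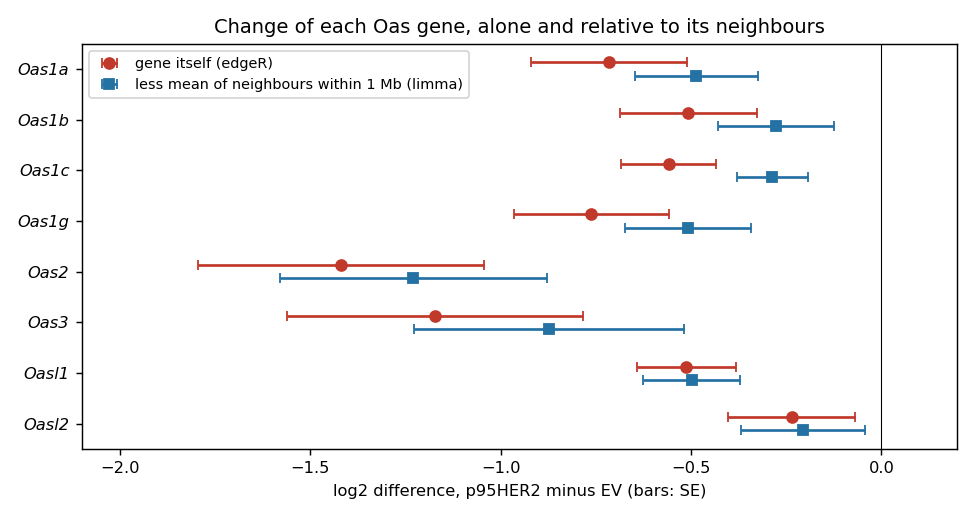
Difference between p95HER2 and EV tumours on the log2 scale for each Oas gene, for the gene itself (circles, edgeR) and for the gene less the mean of its neighbours within 1 Mb (squares, limma), with bars for the SE. The squares lie nearer to 0 than the circles for all 8 genes, least so for Oasl1, which is at -0.51 alone and -0.50 against its neighbours.

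Of the genes listed upstream and downstream of the Oas enzymes, few were called in either direction. Over all 17123 genes tested, 762 were called lower (4.45%) and 981 higher. Whether the counts in these short lists differ from such shares was not tested. Of 4 genes listed for the 2-5A pathway, 1 was called lower and 1 higher. Abce1, whose product recycles ribosomes, fell by 0.14 on the log2 scale (edgeR adjusted p = 0.0450). The phosphodiesterase gene Akap7 rose by 0.23 (edgeR adjusted p = 0.0471), and Pde12, whose product also degrades 2-5A, had a log2 fold change of 0.08 (edgeR adjusted p = 0.516). Of 11 RNA and DNA sensors, 1 was called higher (Tmem173, which encodes STING, log2 fold change 0.19, edgeR adjusted p = 0.0193) and 1 lower (Tlr7, an endosomal RNA receptor, log2 fold change -0.77, edgeR adjusted p = 0.00514). Their median was -0.06. Of 11 genes of the interferon receptor and its transcription factors, 2 were called lower, with a median of -0.11. These were Irf7 (102 ± 15.3 CPM in p95HER2 tumours and 149 ± 46.6 CPM in EV tumours, log2 fold change -0.55, edgeR adjusted p = 0.0489) and Irf5 (log2 fold change -0.59, edgeR adjusted p = 0.0132).

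The interferons themselves were scarce. Of 8 listed, Ifng, the type II interferon of T and NK cells, passed the filter, at 0.336 ± 0.179 CPM in p95HER2 tumours and 0.874 ± 0.867 CPM in EV tumours (log2 fold change -1.37, edgeR adjusted p = 0.123). Ifnb1 had 12 counts over all p95HER2 tumours and 18 over all EV tumours, so a difference in it was not detectable at this depth.

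Of 24 interferon response genes outside the Oas family, 23 were tested, 3 were called lower and 0 higher, and 22 had a negative log2 fold change, with a median of -0.33. The 3 were Ifi27l2a, with 34.3 ± 12.2 CPM in p95HER2 tumours and 92.7 ± 35.4 CPM in EV tumours (log2 fold change -1.43, edgeR adjusted p = 0.00412), the antiviral GTPase gene Mx1 (log2 fold change -0.93, edgeR adjusted p = 0.00848) and Trim30a (log2 fold change -0.79, edgeR adjusted p = 0.0360). Usp18, a negative regulator of interferon signalling, came next with a log2 fold change of -0.42 (edgeR adjusted p = 0.0717). Whether this share of 3 of 23 differs from 5 of 8 Oas genes was not tested. Trex1 was listed at 0 in every tumour.

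**Figure D4:**
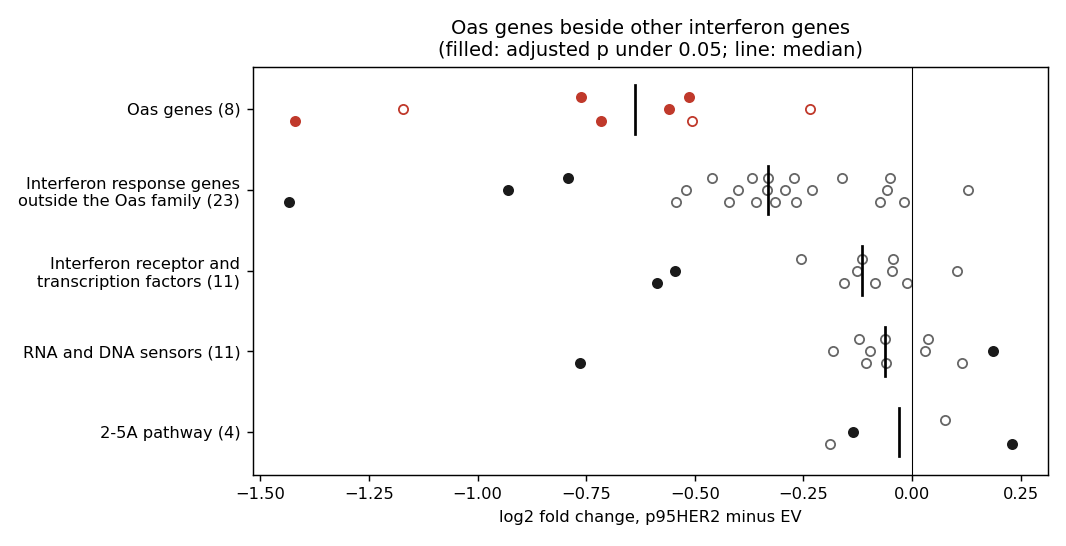
Log2 fold change, p95HER2 minus EV, of the Oas genes and of 4 lists of related genes, with the number tested in brackets. Each circle is a gene, filled at an edgeR adjusted p under 0.05, and the vertical line is the list's median. The median is -0.64 for Oas genes, -0.33 for other interferon response genes, -0.11 for receptor and transcription factor genes and -0.06 for sensors.

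Markers of several other cell types differed between the groups along with the Oas genes. Over all genes tested, 4.45% were called lower, and whether the shares in these lists differ from that was not tested. Of 12 macrophage markers, 7 were called lower and 1, Cd14, higher, and their summed level was 565 to 1072 CPM in p95HER2 tumours and 784 to 1554 CPM in EV tumours. Of 10 T cell markers 3 were called lower (9.51 to 39.5 CPM in sum in p95HER2 tumours and 16.8 to 88.3 CPM in EV tumours). Of 5 tested NK cell markers 3 were called lower. Of 6 markers of plasmacytoid dendritic cells, the main makers of type I interferon, 1 was called lower (Ly6d), and 5 had a negative log2 fold change. Ly6d averaged 84.7 CPM in p95HER2 tumours and 140 CPM in EV tumours. In the same order, Siglech (0.455 and 0.754 CPM) and Ccr9 (0.240 and 0.379 CPM) did not pass (edgeR adjusted p = 0.199 and 0.359). Tcf4 had the opposite sign, with 115 and 111 CPM (log2 fold change 0.06, edgeR adjusted p = 0.524). Bst2 is also on the list of interferon response genes. Whether Ly6d mRNA came from these cells was not tested. Of 3 tested B cell markers 2 were called lower. Outside the lymphoid and macrophage lists, all 5 adipocyte markers were called lower, with a median log2 fold change of -2.11. Postn, among 7 fibroblast markers, was also called lower. Of 5 endothelial markers 0 were called in either direction, with a median log2 fold change of -0.16. Of 6 skeletal muscle markers 0 were called, with a median of -1.11 and a summed level of 69.3 to 5118 CPM in EV tumours. Of 6 neutrophil markers 4 were tested, 2 of them with a negative log2 fold change. Of these 4, S100a8 was called higher (log2 fold change 0.90, edgeR adjusted p = 0.000575) and 0 were called lower. None of the markers in these lists was at 0 in all tumours. With the macrophage level as a covariate, edgeR called 0 of the 8 Oas genes lower, against 0.193% of all genes, while Oas1c had an unadjusted p under 0.05 (0.0420) and Oas2 a log2 fold change of -0.64 (SE 0.39, adjusted p = 0.537). With the mean level of 23 interferon response genes outside chromosome 5 as a covariate, edgeR called 1 of 8 lower, Oas2, against 1.41% of all genes, with a log2 fold change of -0.65 (SE 0.16, adjusted p = 0.0293). Oasl2 had the opposite sign in both fits. These covariates differed between the groups themselves, and the part of immune or other cells in the lower Oas levels was not tested.

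**Figure D5:**
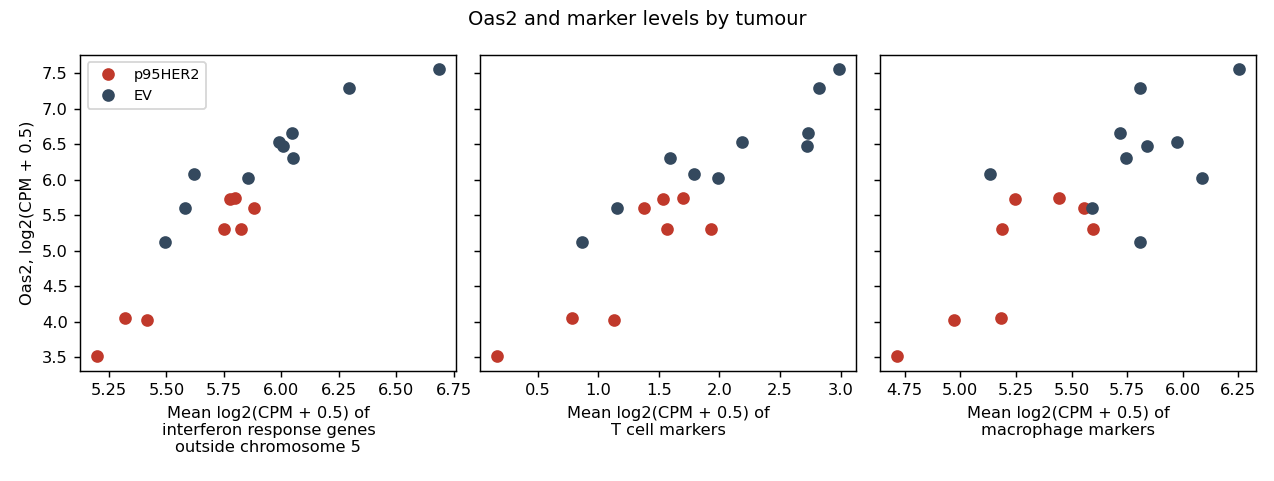
Oas2 in each tumour, as log2(CPM + 0.5), against the mean log2(CPM + 0.5) of interferon response genes outside chromosome 5 (left), T cell markers (middle) and macrophage markers (right). Red points are p95HER2 tumours and blue points EV tumours. The p95HER2 tumours lie lower on all axes on average, and p95HER2 1, 2 and 4, at the bottom left of each panel, are the 3 lowest p95HER2 tumours in Oas2 and in all 3 measures.

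Within EV tumours, where the group difference plays no part, Oas2 correlated with Isg15 (Pearson r = 0.93, Spearman rho = 0.84), Irf7 (r = 0.92, rho = 0.83), Mx1 (r = 0.86, rho = 0.82) and the T cell level (r = 0.92, rho = 0.94). The adjusted permutation p over the family of 14 relations was 0.00133, 0.00159, 0.0035 and 0.00133 for r in that order, 0.00308 for rho with the T cell level and 0.0207 for the other rho values. With the macrophage level it did not pass (r = 0.41, rho = 0.31, adjusted permutation p = 0.263 and 0.419), nor with the luminal epithelial level (r = -0.66, rho = -0.61, adjusted permutation p = 0.0549 and 0.116) or the skeletal muscle level (r = 0.55, rho = 0.49, adjusted permutation p = 0.149 and 0.18). In p95HER2 tumours, the 3 of lowest Oas2 also had the 3 lowest macrophage levels of that group, at 4.72, 4.97 and 5.18 on the log2 scale, against 5.189 to 5.596 in the other 5. Without the 2 EV tumours farthest from the median of each measure, r with Isg15, Irf7, Mx1 and the T cell level was 0.83, 0.82, 0.67 and 0.81. The adjusted permutation p was 0.0617, 0.0617, 0.167 and 0.0617, so none passed. These relations rested on 8 tumours in place of 10, and whether the lower number or the tumours left out made the difference was not tested.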

How the data were processed

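RNA was sequenced from 18 PB2 tumours, 8 p95HER2 and 10 EV by the genotype label; replicate numbers follow accession order and only name a tumour. The authors deposited a table of raw counts with Ensembl identifiers, made with STAR 2.5 and HTSeq 0.6.1 on mm10, per the submitters' processing notes. The library kit was directional per the labels' protocols, but the sources used here do not give the strand option or annotation release of the counting, which leaves genes that overlap on opposite strands uncertain: the antisense genes that overlap Oas genes had at most 94 counts over a group. No 2 libraries agreed within sampling noise.

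Genes were kept by filterByExpr (minimum count 10, minimum total 15), scaled by TMM and tested with edgeR 4.0.16 in R 4.3.3 (robust quasi-likelihood, Benjamini-Hochberg over 17123 genes, threshold 0.05, no covariate). The comparison with neighbours used limma 3.58.1 on log2(CPM + 0.5) for genes with at least 5 neighbours within 1 Mb, with a variance trend on the gene's own mean level. Annotation came from a GENCODE release of the same build. Correlations used two-sided permutation tests in 2 families of 14 relations. These took 100000 resamples for 10 tumours and all permutations for fewer tumours. Both tests were tested on simulated counts. Alternatives were RLE scaling, library totals, no filter, DESeq2 1.42.0, limma voom, 2 covariates, other windows and pseudocounts, and each tumour left out.

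The 8 genes and all lists were chosen with earlier results of these data known. Text names all Oas genes, and of each list the 4 genes of smallest adjusted p at most (all genes of short lists); 1 gene that the rule took is not reported here. It also names the genes called near the clusters and the 5 genes most like Oas2. Precision is limited by the number of tumours.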

Additional observations from a re-analysis of the deposited data

Results flagged for a closer look

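Oasl1 in EV 7, at 46.1 CPM, stood apart from the other EV tumours by Dixon's test of the gap to the nearest value over the range. It was the 1 flag among 16 groups of values tested (8 genes in 2 groups), and chance flags about 1 group in 20. EV 7 was the highest tumour in all 8 Oas genes. Without it Oasl1 was still called lower.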

How the results depend on the processing

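The count of 5 Oas genes called lower was 3 with no low-count filter, 0 with the macrophage level and 1 with the interferon response level as a covariate, and 3 to 6 when each tumour was left out, lowest without p95HER2 4. It was 7 with DESeq2 or limma voom, where Oas3 and Oas1b joined, and 5 with RLE scaling or library totals. Oas1c, Oas2 and Oasl1 were called in all 18 fits without 1 tumour. Oasl2, not called in any fit, reversed to 0.20 with the macrophage level and 0.16 with the interferon response level as a covariate; the cause was not tested. Over all genes, 762 were called lower: 1156 with DESeq2, 33 with the macrophage level, 241 with the interferon response level and 489 to 1130 without 1 tumour. Of 981 called higher, 143 and 483 were called with these covariates. Relative to neighbours, 2 Oas genes were called, and 1 to 5 without 1 tumour. Without the 2 tumours farthest from the median, the correlation of Oas2 in EV tumours was 0.82 with Irf7, 0.67 with Mx1, 0.83 with Isg15 and 0.81 with the T cell level, none past the threshold (adjusted permutation p = 0.0617, 0.167, 0.0617 and 0.0617). No paired analysis was possible because the labels give the groups no shared replicate numbers. Depth limits the interferon genes and the 4 silent Oas1 copies.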
